A study of Mus musculus with 5 samples.

Results

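Cholesterol and fatty acid synthesis genes were examined in the B9 line, established from a squamous cell carcinoma of mouse skin and carrying HRAS-Q61L, an activating change in a RAS protein. The set holds 33 genes, chosen by name from the 2 pathways and their regulators. The array's annotation gave 18194 genes a probe set with a single gene symbol. For each gene the probe set with a single gene symbol and the highest mean signal over the 3 treatment groups was used. In all, 32 members had such a probe set, and all 32 passed the filter on signal, against 10853 of the 18194 genes. Acat2, the cytosolic thiolase that starts the pathway, was not analysed here.

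Treatment lasted 17 h, with 1 µM PLX4032 (vemurafenib, a BRAF inhibitor known to activate the MAPK pathway where RAS is mutant; 2 arrays), with 1 µM PLX7904 (a BRAF inhibitor intended not to do so; 2 arrays) or with DMSO, the vehicle, given as 0.2% (1 array). All 3 groups were the same line with the same HRAS change, so that no group lacked mutant RAS, and both comparisons with vehicle rest on 1 DMSO array. The labels call the arrays biological replicates without saying whether they came from separate cultures, and the p-values then cover only spread among these arrays, which may be technical. The compound volume in the same labels implies less vehicle in the treated dishes than in the control, and the lipid content of the medium is not known here. Vehicle content and treatment therefore cannot be told apart in the comparisons with DMSO.

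Cells build cholesterol from acetyl-CoA through mevalonate, isoprenoid diphosphates, squalene and lanosterol, and build fatty acids from acetyl-CoA through malonyl-CoA, followed by elongation and desaturation. Both routes are induced by the SREBP transcription factors, membrane proteins that SCAP escorts from the endoplasmic reticulum to the Golgi for cleavage when sterols are scarce and that INSIG proteins hold back when sterols are plentiful. In squamous epithelium these lipids serve membrane growth and, in the outer epidermis, the permeability barrier.

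The promoters of 5 members are shown because 4 of them, Dhcr7, Sc5d, Mvk and Fads2, are the members that passed the test against vehicle, and Hmgcs1 is a classical SREBP target that did not. Sequences are from RefSeq on build GRCm38.p6, from 250 bases before to 50 bases after an annotated start, 5′ to 3′ on the gene's strand. The windows are chr7:143822917-143823216 on the plus strand for Dhcr7 (the first of its 3 annotated starts), chr9:42264251-42264550 on the minus strand for Sc5d, chr5:114444019-114444318 on the plus strand for Mvk, chr19:10101454-10101753 on the minus strand for Fads2 and chr13:119690101-119690400 on the plus strand for Hmgcs1. Capitals mark matches, on either strand, to a sterol regulatory element core (CACNCCA), the CCAAT box that NF-Y binds (CCAAT) and the GC box that Sp1 binds (GGGCGG).
Dhcr7: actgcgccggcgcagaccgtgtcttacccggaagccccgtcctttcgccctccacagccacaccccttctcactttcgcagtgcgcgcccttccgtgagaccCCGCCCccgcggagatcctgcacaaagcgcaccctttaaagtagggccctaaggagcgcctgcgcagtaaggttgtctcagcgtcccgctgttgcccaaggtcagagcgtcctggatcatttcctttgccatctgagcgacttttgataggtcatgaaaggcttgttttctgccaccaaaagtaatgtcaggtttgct
Sc5d: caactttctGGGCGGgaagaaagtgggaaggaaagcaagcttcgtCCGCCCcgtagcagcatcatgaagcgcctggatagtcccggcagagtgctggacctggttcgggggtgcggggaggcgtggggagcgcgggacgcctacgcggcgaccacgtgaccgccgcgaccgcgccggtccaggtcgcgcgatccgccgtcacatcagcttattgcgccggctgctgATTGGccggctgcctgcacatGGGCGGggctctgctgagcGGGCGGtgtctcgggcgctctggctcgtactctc
Mvk: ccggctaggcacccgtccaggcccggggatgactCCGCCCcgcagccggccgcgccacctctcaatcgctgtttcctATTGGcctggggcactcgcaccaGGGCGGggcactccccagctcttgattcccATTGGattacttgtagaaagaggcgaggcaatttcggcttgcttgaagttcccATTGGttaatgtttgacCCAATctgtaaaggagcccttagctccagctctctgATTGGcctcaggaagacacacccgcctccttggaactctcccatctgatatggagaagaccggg
Fads2: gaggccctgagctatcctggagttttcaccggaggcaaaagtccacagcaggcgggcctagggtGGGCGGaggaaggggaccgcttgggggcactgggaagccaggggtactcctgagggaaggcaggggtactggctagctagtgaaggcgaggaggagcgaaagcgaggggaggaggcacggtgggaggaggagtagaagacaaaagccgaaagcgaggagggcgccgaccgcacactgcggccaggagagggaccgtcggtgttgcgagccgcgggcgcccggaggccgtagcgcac
Hmgcs1: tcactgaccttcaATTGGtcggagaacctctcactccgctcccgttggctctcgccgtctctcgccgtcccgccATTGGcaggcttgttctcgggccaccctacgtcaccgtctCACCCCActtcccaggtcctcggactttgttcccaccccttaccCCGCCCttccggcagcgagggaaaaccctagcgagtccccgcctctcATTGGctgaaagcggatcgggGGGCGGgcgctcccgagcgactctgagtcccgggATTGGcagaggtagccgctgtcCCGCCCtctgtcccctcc
Fads2 held 1 GC box and no other match, Sc5d 1 CCAAT box and 4 GC boxes, and Mvk 5 CCAAT boxes and 2 GC boxes. Hmgcs1 held 1 sterol element core, 4 CCAAT boxes and 3 GC boxes. In the printed window Dhcr7 held 1 GC box.

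Promoter windows were found for 26 of the 33 members, 34 windows in all because some genes have several starts. Fads1, Fdft1, Fdps, Scd1, Scd2, Sqle and Stard4 were not matched. CCAAT boxes stood in 64.7% of the member windows, against 37.6% of 11311 windows of the genes tested and 37.4% of all 32851 windows. Counted per gene, 21 of 26 members (80.8%) had one, against 43.0% of the genes tested. GC boxes stood in 73.5% of member windows, 63.5% of windows of the genes tested and 35.7% of all windows. The sterol element core stood in 20.6% of member windows, 17.9% of windows of the genes tested and 18.4% of all windows, and per gene in 23.1% of members and 20.7% of the genes tested. These differences in share were not tested. The 6 members with a core match were Acat2, Hmgcs1, Msmo1, Insig1, Insig2 and Srebf2, and none of the 5 of them that were measured passed the test in any comparison. A match describes letters in this window and is not a bound site.

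**Figure D1:**
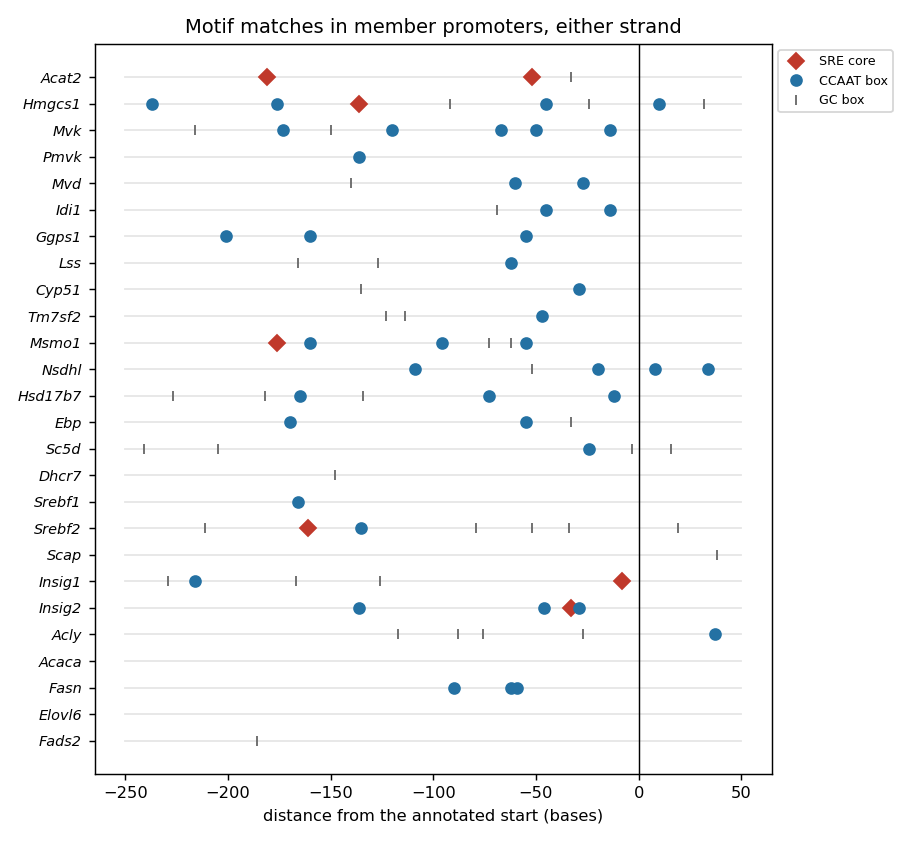
Matches to 3 short motifs in the promoter window of each member with a RefSeq entry (rows, first annotated start of a gene), by distance of the match's first base from the start in bases (x axis). Diamonds are the sterol element core, circles the CCAAT box and ticks the GC box; most of the window lies before the start, and Acaca and Elovl6 show no match.

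The label of the cells was checked with 12 genes of squamous epithelium, all of which passed the filter, with mean signals from 1628 (Itgb4) to 24641 (Krt6a). Of these 12 genes, 4 rose with PLX4032 against DMSO (Krt8, Krt18, Epcam and Itga6) and 1 fell (Dsp), or 41.7%, against 10.6% of all genes tested. The largest difference was that of Krt18 at 1.62-fold (limma adjusted p = 1.09e-04). Of markers of other cell types, 1 of 8 fibroblast genes passed the filter (Pdgfra, mean signal 155), 2 of 5 adipocyte genes, 2 of 4 sebocyte genes (Mgst1, mean signal 701, and Dgat2, 207), 2 of 6 immune genes, 1 of 4 endothelial genes and 1 of 5 melanocyte genes (Pmel, 54.3). Mgst1 was brighter than some members. None of these markers was listed at 0. The summed signal of the fibroblast markers was 191 with DMSO, 423 and 403 with PLX4032 and 214 and 268 with PLX7904, and that of the 5 adipocyte markers 74.4, then 157 and 216, then 164 and 138. The summed signal of 4 sebocyte markers, most of it Mgst1, was 1050.4 with DMSO, 722 and 696 with PLX4032 and 1067 and 1151 with PLX7904. That of the 5 melanocyte markers was 50.1, then 133 and 155, then 128 and 173, and Pmel was 5.57-fold higher with PLX4032 than with DMSO (limma adjusted p = 0.00936). The immune and endothelial sums ranged from 268 to 305 and from 48.5 to 203 over the arrays. The part of these markers in the results was not tested. In cultures, fewer cells of a type and less RNA per cell cannot be told apart.

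The first comparison, of PLX4032 with DMSO, asks how lipid synthesis genes stood in HRAS-mutant cells under a BRAF inhibitor of the first class. Most members moved little. Dhcr7 and Sc5d, which act at the end of cholesterol synthesis, rose, while Mvk, an early kinase of the mevalonate route, and Fads2, a fatty acid desaturase, fell. Thus 2 members rose and 2 fell of 32, or 12.5%, against 10.6% of all genes tested (5.44% higher and 5.21% lower), with limma and an adjusted p under 0.05. That share is near the background. The median log2 difference over the 32 members was 0.0018, beside -0.05 over all genes tested, and 17 members lay above 0 and 15 below. At an unadjusted p under 0.05 there were 6 members higher and 7 lower, where 11.5% and 14.4% of all genes tested were. Both PLX4032 arrays lay above the DMSO array for 15 members and below it for 14, as they did for 34.2% and 47.7% of all genes tested.

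For 20 of the 32 members the 95% interval of the log2 difference lay within -0.5 to 0.5, against 43.5% of all genes tested. The dimmest 25% of the genes tested held no member, and the part of signal level in such shares was not tested. The median interval reached 0.22 to either side. These intervals are from the fit and are not adjusted for the number of genes. Folds were taken on the scale of log2(signal + 3.34), so those of dim genes are understated.

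Differences between PLX4032 and DMSO also varied with signal level, and the part of this trend in the results of the members was not tested. Over all genes tested the median difference between PLX4032 and DMSO ran from -0.18 in the dimmest 25% of genes, which held no member, to 0.16 in the brightest 2%. The 8 members between the 90th and 98th percentile of signal had a median of 0.15, against 0.08 for all genes there. For the 4 members between the 25th and 50th percentile it was -0.51, against -0.11 for all genes there. The 10 members between the 50th and 75th percentile had 0.00, against -0.05, and the 9 between the 75th and 90th had -0.03, against 0.00. Dhcr7, Sc5d and Fads2 kept their calls after quantile normalization and after cyclic loess, which act on such a trend. Median centring of each array, which moved the median of all genes from -0.05 to 0.10, left 2 members higher and 0 lower. It left 792 of all genes tested higher and 227 lower, or 9.39% in either direction.

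**Figure D2:**
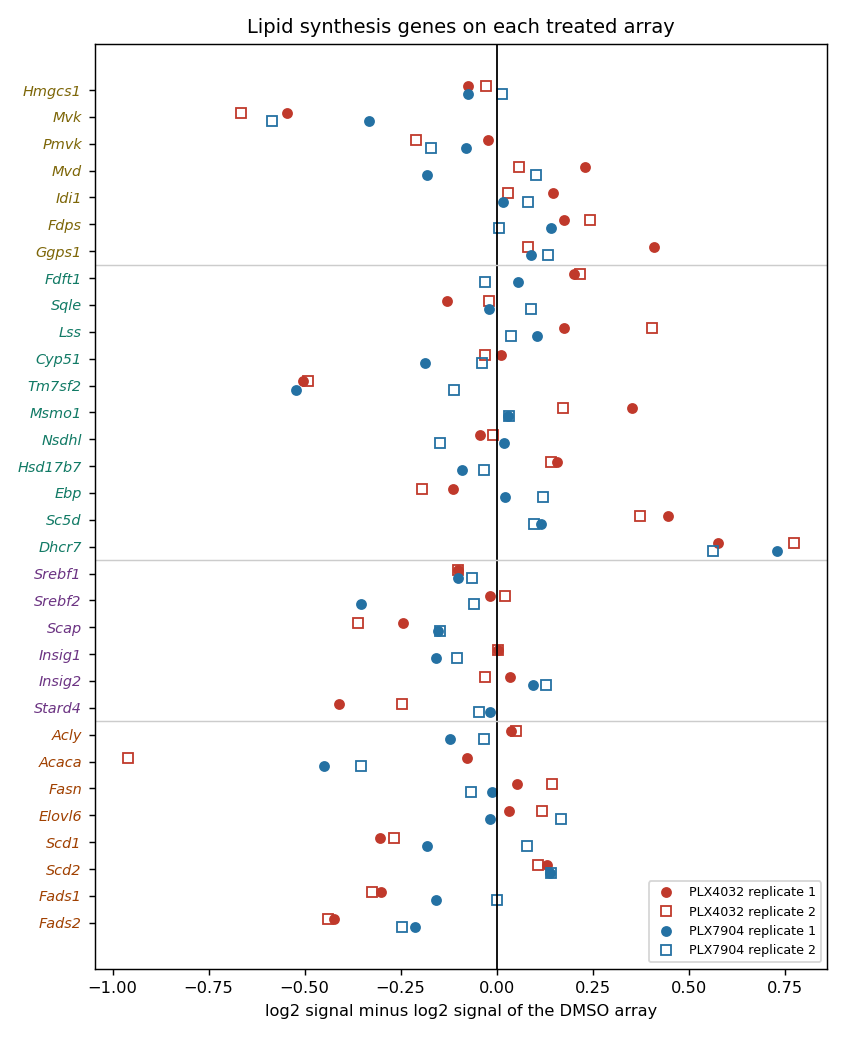
Log2 signal of each of the 32 measured members on the 4 treated arrays minus that on the DMSO array (x axis; 0 is the DMSO array), with members in rows coloured by arm: mevalonate, sterol, regulation and transport, fatty acid. Red is PLX4032 and blue PLX7904, filled circles are replicate 1 and open squares replicate 2; all 4 treated arrays lie above DMSO for Dhcr7, and the PLX4032 replicates of Acaca lie 0.88 apart.

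The sterol arm turns farnesyl diphosphate into cholesterol. Dhcr7 encodes the reductase of the last step of the Kandutsch-Russell branch. Its signal was 727 on the DMSO array, 1086 and 1245 on the PLX4032 arrays and 1208 and 1075 on the PLX7904 arrays. The DMSO array was the low one, and the arrays of the compounds overlapped. With PLX4032 the gene rose 1.60-fold (95% interval 1.31 to 1.95, limma adjusted p = 0.00945). It was 1.57-fold higher with PLX7904 (1.28 to 1.91), which did not pass (limma adjusted p = 0.281; unadjusted p = 5.06e-04). That value passed when either PLX4032 array was left out (limma adjusted p = 0.0319 without replicate 1 and 0.0250 without replicate 2). The difference between the compounds was 0.03 on the log2 scale, with an interval of -0.21 to 0.26.

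Sc5d encodes the desaturase that makes the substrate of DHCR7. Its signal was 4635 with DMSO, 6316 and 6003 with PLX4032 and 5023 and 4962 with PLX7904. The PLX4032 arrays stood above the other 3, which lay close together. Sc5d rose 1.33-fold with PLX4032 against DMSO (95% interval 0.23 to 0.59 on the log2 scale, limma adjusted p = 0.00981). It was also 1.23-fold higher than with PLX7904 (1.12 to 1.36, limma adjusted p = 0.0125), a test of the difference itself. Both calls ended without PLX4032 replicate 1 (log2 0.37, limma adjusted p = 0.0525, and log2 0.27, limma adjusted p = 0.131). A dimmer probe set of Sc5d (mean signal 382) read -0.44 against DMSO and -0.30 between the compounds. The third (mean signal 41.2), which was below the filter, read -1.11 and -1.33. The mean over all 3 probe sets turned the differences to -0.38 and -0.44.

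Msmo1, the methyl sterol oxidase that removes the methyl groups of lanosterol's derivatives, read 7034 with DMSO, 8983 and 7929.7 with PLX4032 and 7182 and 7195 with PLX7904. Its PLX4032 arrays were the high ones without overlap. The log2 difference of 0.26 from DMSO did not pass (SE 0.09, limma adjusted p = 0.0821), and neither did that of 0.23 between the compounds (SE 0.07, limma adjusted p = 0.0566). Without PLX4032 replicate 2 both passed, at 0.35 (limma adjusted p = 0.0380) and 0.32 (limma adjusted p = 0.0248). With the replicate number as a block both passed as well (limma adjusted p = 0.0427 and 0.0360). The difference between the compounds passed with the filter at the 75th percentile (limma adjusted p = 0.0421) and with robust fitting (0.0455) too. A dim probe set of Msmo1 (mean signal 70.4) read -0.77 against DMSO and 0.00 between the compounds.

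Squalene synthase, encoded by Fdft1, is the first enzyme committed to sterols. It read 7049 with DMSO, 8112 and 8194 with PLX4032 and 7324 and 6909 with PLX7904. Lss, which closes squalene epoxide to lanosterol, read 1344 with DMSO, 1518 and 1779 with PLX4032 and 1446 and 1378 with PLX7904. Hsd17b7, a ketosteroid reductase of the C4-demethylation steps, read 3709 with DMSO, 4137 and 4088 with PLX4032 and 3482 and 3624 with PLX7904. In these 3 genes the PLX4032 arrays were above all others, and none of the differences passed. The log2 differences from DMSO were 0.21 for Fdft1 (SE 0.08), 0.29 for Lss (SE 0.12) and 0.15 for Hsd17b7 (SE 0.08). A dimmer probe set of Lss (mean signal 573) read -0.42, whereas the second probe set of Fdft1 (mean signal 4082) read 0.16 and that of Hsd17b7 (mean signal 2392) 0.34. Fdft1 passed as higher with PLX4032 without either PLX7904 array (limma adjusted p = 0.0496 and 0.0484) or with the mean of its probe sets, 2 of which were below the filter (log2 0.97, limma adjusted p = 0.0231). Hsd17b7 passed where probe sets with the suffix x, s or a were left out, which moved it to its second probe set (log2 0.34, limma adjusted p = 0.0425; between the compounds log2 0.37, limma adjusted p = 0.00815).

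Sqle, the squalene epoxidase and a rate-limiting step, read 5072 with DMSO, 4635 and 5002 with PLX4032 and 4999 and 5395 with PLX7904. The arrays of the compounds overlapped, and the log2 difference of -0.08 from DMSO had an interval of -0.27 to 0.12. Cyp51, the lanosterol demethylase, and Nsdhl, a dehydrogenase of the C4-demethylation steps, differed from DMSO by -0.01 (interval -0.21 to 0.19) and -0.03 (-0.24 to 0.18). A second probe set of Cyp51 (mean signal 1960.5) read -0.40 with PLX4032 and -0.26 with PLX7904. Ebp, the sterol isomerase, read 4143 with DMSO, 3826 and 3621 with PLX4032 and 4209 and 4506 with PLX7904. Its PLX4032 arrays were the low ones, at a log2 difference of -0.23 between the compounds that did not pass (SE 0.07, limma adjusted p = 0.0653), except with the filter at the 75th percentile (0.0483), after quantile normalization (0.0460) and without PLX7904 replicate 1 (0.0446). Tm7sf2, a sterol C14 reductase, read 356 with DMSO, 250.3 and 252 with PLX4032 and 247 and 329.6 with PLX7904, and its log2 difference of -0.50 between PLX4032 and DMSO did not pass (SE 0.20, limma adjusted p = 0.151). Of the 11 genes of the sterol arm, then, 2 rose and 0 fell with PLX4032, at a median log2 difference of 0.15, beside 5.44% higher, 5.21% lower and a median of -0.05 over all genes tested. The same shares and median stand beside the counts of the other arms. The arm's median was 0.16 on PLX4032 replicate 1 and 0.14 on replicate 2, beside 0.02 and 0.03 on the PLX7904 arrays.

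The mevalonate arm makes isoprenoid diphosphates, which also feed protein prenylation, the lipid anchoring of RAS proteins included. Mvk, mevalonate kinase, read 489.6 with DMSO, 335 and 307 with PLX4032 and 388 and 325 with PLX7904. The DMSO array was the high one, and the arrays of the compounds overlapped. Mvk fell 1.52-fold with PLX4032 (95% interval 1.17 to 1.97, limma adjusted p = 0.0470). It was 1.37-fold lower with PLX7904 (1.06 to 1.78), which did not pass (limma adjusted p = 0.622). The PLX4032 call ended in 7 planned settings beside those that leave out an array, and without PLX4032 replicate 2 (log2 -0.54, limma adjusted p = 0.0906). Its second probe set read -0.23.

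Hmgcs1, the synthase that makes HMG-CoA, was flat: its signal was 8824 with DMSO, 8387 and 8649 with PLX4032 and 8377 and 8911 with PLX7904. The log2 difference of -0.05 between PLX4032 and DMSO had an interval of -0.22 to 0.11, and its next 3 probe sets by brightness read 0.03, -0.01 and 0.03, while the dimmest (mean signal 95.5) read -0.67. Fdps, farnesyl diphosphate synthase, read 9092 with DMSO, 10276 and 10768 with PLX4032 and 10037 and 9126 with PLX7904. Its PLX4032 arrays were the highest, and the log2 difference of 0.21 from DMSO did not pass (SE 0.08, limma adjusted p = 0.126); it did when PLX7904 replicate 1 (limma adjusted p = 0.0494) or replicate 2 (0.0482) was left out. Idi1, the isopentenyl diphosphate isomerase, Pmvk and Mvd, the kinase and decarboxylase after Mvk, and Ggps1, which makes the geranylgeranyl donor, had log2 differences from DMSO between -0.12 (Pmvk) and 0.25 (Ggps1), none of which passed. A second probe set of Idi1 (mean signal 2891) read -0.31, against 0.09 for the one used. Between the compounds Mvd passed where probe sets with the suffix x, s or a were left out, which moved it to its other probe set (log2 0.47, limma adjusted p = 0.0125). Of the 7 genes measured in this arm 0 rose and 1 fell, at a median of 0.09.

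None of the 6 genes of regulation and transport passed in either direction with limma, and 2 had an unadjusted p under 0.05, both lower. Srebf2, the SREBP that chiefly drives cholesterol synthesis, read 1611 with DMSO, 1591 and 1634 with PLX4032 and 1260.3 and 1546 with PLX7904. Srebf1, which chiefly drives fatty acid synthesis, read 1825 with DMSO, 1703 and 1702 with PLX4032 and 1702 and 1746 with PLX7904. Insig1, an SREBP target and the feedback brake on the pathway, read 1194 with DMSO and 1197 and 1198 with PLX4032. These 3 genes lay at 0.00 (Srebf2, interval -0.28 to 0.29), -0.10 (Srebf1, -0.32 to 0.12) and 0.00 (Insig1, -0.24 to 0.24) against DMSO. A second probe set of Srebf2 (mean signal 321) read -0.25. Insig2 also differed from DMSO by 0.00 (-0.26 to 0.27), while its dimmer probe sets (mean signals 766 and 605) read -0.02 and -0.26.

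The 2 lower genes were Scap and Stard4. Scap, the SREBP escort, read 2325 with DMSO, 1962 and 1810.3 with PLX4032 and 2092 and 2098 with PLX7904, without overlap between the groups, at a log2 difference of -0.30 from DMSO that did not pass (SE 0.10, limma adjusted p = 0.0804). Stard4, a cytosolic sterol carrier, read 1162 with DMSO, 873 and 979 with PLX4032 and 1148 and 1126 with PLX7904. Its PLX4032 arrays were the low ones, but the log2 difference of -0.33 did not pass (SE 0.12, limma adjusted p = 0.109). An almost equally bright probe set of Stard4 (mean signal 1005, against 1075 for the one used) read 0.20, and another (mean signal 990) read -0.16.

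Of the 8 genes of the fatty acid arm 0 rose and 1 fell, at a median of -0.12. Fasn, the fatty acid synthase, read 3844 with DMSO, 3985 and 4251 with PLX4032 and 3813 and 3673 with PLX7904. Acly, which makes cytosolic acetyl-CoA from citrate, read 9018 with DMSO, 9263 and 9332 with PLX4032 and 8287 and 8811 with PLX7904. Against DMSO the log2 differences were 0.10 for Fasn (interval -0.09 to 0.29), 0.04 for Acly (-0.12 to 0.21) and 0.08 for the elongase Elovl6 (-0.16 to 0.31). Dimmer probe sets of Acly past the filter (mean signals 7897 and 1285) read 0.18 and 0.38. Acaca, acetyl-CoA carboxylase, could not be placed: its PLX4032 replicates read 540.1 and 291 against 570.2 with DMSO, the widest gap of any member. Its log2 difference of -0.52 had an interval of -1.14 to 0.10. It passed as lower without PLX4032 replicate 1 (log2 -0.96, limma adjusted p = 9.75e-04), and then also against PLX7904 (log2 -0.56, limma adjusted p = 0.0361).

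Of the 4 desaturase genes in the arm Fads2 alone passed. Fads2, the delta-6 desaturase that starts the synthesis of long polyunsaturated fatty acids, read 2625 with DMSO, 1958 and 1936 with PLX4032 and 2266 and 2212 with PLX7904. The 3 groups did not overlap, with PLX7904 between the other two. Fads2 fell 1.35-fold with PLX4032 (95% interval 1.17 to 1.55, limma adjusted p = 0.0162). It was 1.17-fold lower with PLX7904 (1.02 to 1.35), which did not pass (limma adjusted p = 0.672), and the difference of -0.20 between the compounds did not pass either (limma adjusted p = 0.113). A second probe set of Fads2 (mean signal 933) read -0.09 with PLX4032 and 0.25 with PLX7904, and the dimmest (mean signal 534) -0.47 and -0.39. The call ended with the mean over probe sets (log2 -0.33, limma adjusted p = 0.126), with median centring (-0.28, limma adjusted p = 0.233) and without the intensity trend.

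Fads1, the delta-5 desaturase, read 3229 with DMSO, 2622 and 2576 with PLX4032 and 2895 and 3232 with PLX7904. Scd1, a delta-9 desaturase that makes monounsaturated fatty acids, read 1999 with DMSO, 1619 and 1661 with PLX4032 and 1762 and 2112 with PLX7904. In both the PLX4032 arrays were below all others. The log2 differences from DMSO of -0.31 for Fads1 (SE 0.10, limma adjusted p = 0.0688) and -0.29 for Scd1 (SE 0.12, limma adjusted p = 0.164) did not pass. Fads1 passed when PLX7904 replicate 1 (limma adjusted p = 0.0281) or replicate 2 (0.0277) was left out. Between the compounds Fads1 and Scd1 passed as lower with PLX4032 without PLX7904 replicate 1 (limma adjusted p = 0.0321 and 0.0303). Its dimmer probe set (mean signal 194) read -0.27 and that of Scd1 (mean signal 548) -0.11. Scd2, the delta-9 desaturase broadly expressed outside liver, read 21445 with DMSO, 23496 and 23118 with PLX4032 and 23615 and 23676 with PLX7904, at a log2 difference of 0.12 (interval -0.01 to 0.25).

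**Figure D3:**
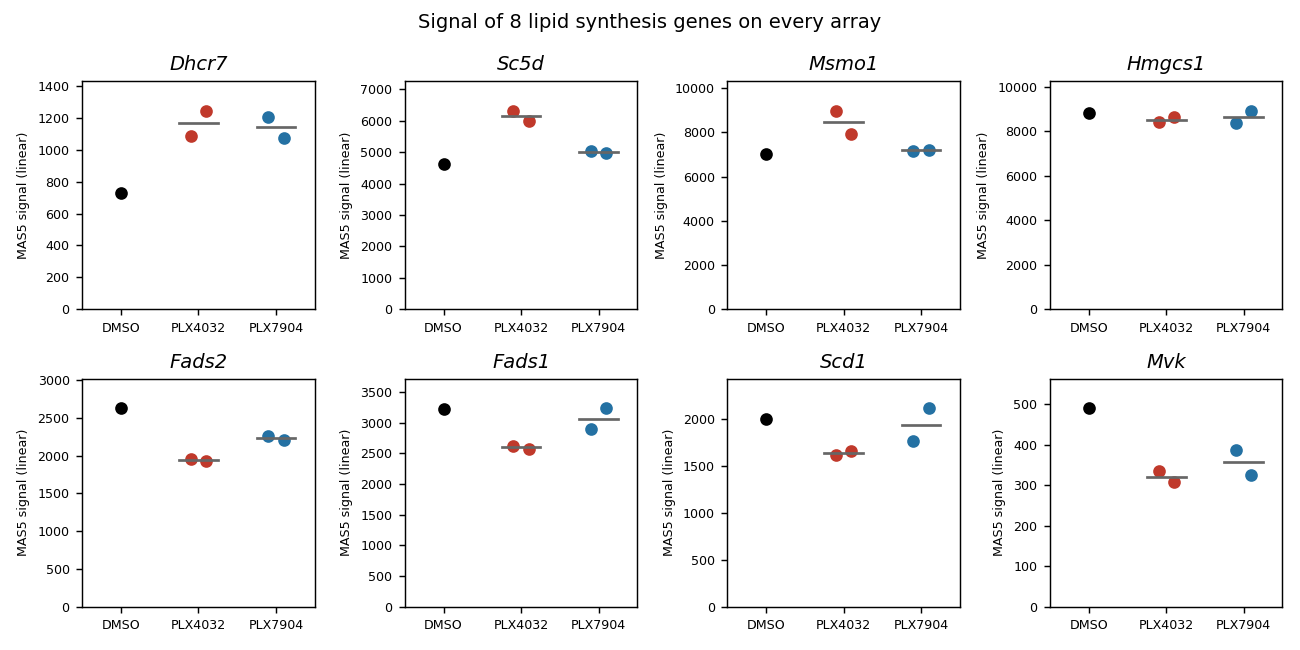
MAS5 signal on a linear scale starting at 0 (y axis) of 8 members on every array, by group (x axis); points are arrays and grey lines the means of the 2 arrays of a compound. Dhcr7 is low on the DMSO array alone, Sc5d is high on the PLX4032 arrays alone, Hmgcs1 is level, and Fads2 steps down from DMSO over PLX7904 to PLX4032.

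In the second comparison, of PLX7904 with DMSO, no member passed with limma: 0 were higher and 0 lower, against 0% of all genes tested. At an unadjusted p under 0.05 there were 4 members, Dhcr7 and Scd2 higher and Mvk and Fads2 lower, where 6.65% of all genes tested had such a p (3.58% higher and 3.07% lower). Both PLX7904 arrays lay above the DMSO array for 10 members and below it for 14, against 30.8% and 35.7% of all genes tested. The count of members was also 0 without the intensity trend and with robust fitting. The interval of 28 of the 32 members lay within -0.5 to 0.5, against 57.8% of all genes tested. The exceptions were Acaca, Dhcr7, Mvk and Tm7sf2. The median over the members was -0.04, beside -0.01 over all genes tested, with 13 members above 0 and 19 below. This comparison and the first share their DMSO array.

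The third comparison, of PLX4032 with PLX7904 at the same dose and time, is the only one with replicates on both sides. The compounds are both BRAF inhibitors and were compared as 1 pair, with p-values adjusted over all genes. One member differed, Sc5d, or 3.12% of the members against 13.3% of all genes tested (6.43% higher and 6.86% lower). At an unadjusted p under 0.05 there were 10 members, 5 in each direction, where 27.3% of all genes tested had such a p (12.0% higher and 15.3% lower). Both PLX4032 arrays lay above both PLX7904 arrays for 11 of the 32 members, where 23.8% of all genes tested did so, and below for 8, where 32.2% did. Besides Sc5d, Msmo1, Fdft1, Lss and Hsd17b7, the 11 included Cyp51, Fdps, Acly, Fasn, Insig1 and Srebf2. The 8 were Ebp, Scap, Insig2, Stard4, Scd1, Scd2, Fads1 and Fads2. The dimmer probe sets of Insig2 (mean signals 766 and 605) read 0.22 and 0.02 between the compounds, against -0.11 for the one used. Second probe sets of Lss (mean signal 573) and Cyp51 (1960.5) read -0.24 and -0.14. Those of Fdft1 (4082) and Hsd17b7 (2392) read 0.27 and 0.37. The log2 difference of Srebf2 was 0.35 without PLX7904 replicate 2, and that of Fdft1 was 0.24 without PLX7904 replicate 1. Between the compounds Fdft1 passed with the filter at the 75th percentile (log2 0.20, limma adjusted p = 0.0471). It also passed where probe sets with the suffix x, s or a were left out (log2 0.27, limma adjusted p = 0.0288). A second probe set of Srebf2 (mean signal 321) read -0.20 between the compounds with all arrays.

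With the probe sets used, the differences between the compounds lay between -0.30 (Stard4) and 0.30 (Sc5d) on the log2 scale. Other probe sets of Stard4 (mean signals 1005 and 990) read 0.07 and -0.19, and one of Sc5d (mean signal 382) read -0.30. Examples near 0 were chosen after their values were seen. For Hmgcs1 the log2 difference was -0.02 (interval -0.16 to 0.11), for Scd2 -0.02 (-0.13 to 0.08), for Srebf1 -0.02 (-0.20 to 0.16) and for Elovl6 0.00 (-0.19 to 0.19). The interval lay within -0.5 to 0.5 for 29 of the 32 members, all but Acaca, Stard4 and Tm7sf2, and for 55.0% of all genes tested. The median over the members was 0.02, beside -0.04 over all genes tested. By arm it was 0.10 for sterol genes, 0.04 for the mevalonate arm, -0.06 for regulation and transport and -0.07 for fatty acid genes. With median centring, which moved the median of all genes from -0.04 to 0.11, 6 members were higher and 0 lower, namely Fdft1, Hsd17b7, Lss, Msmo1, Sc5d and Srebf2. Of all 10853 genes tested 1225 were then higher and 307 lower, or 14.1% in either direction.

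**Figure D4:**
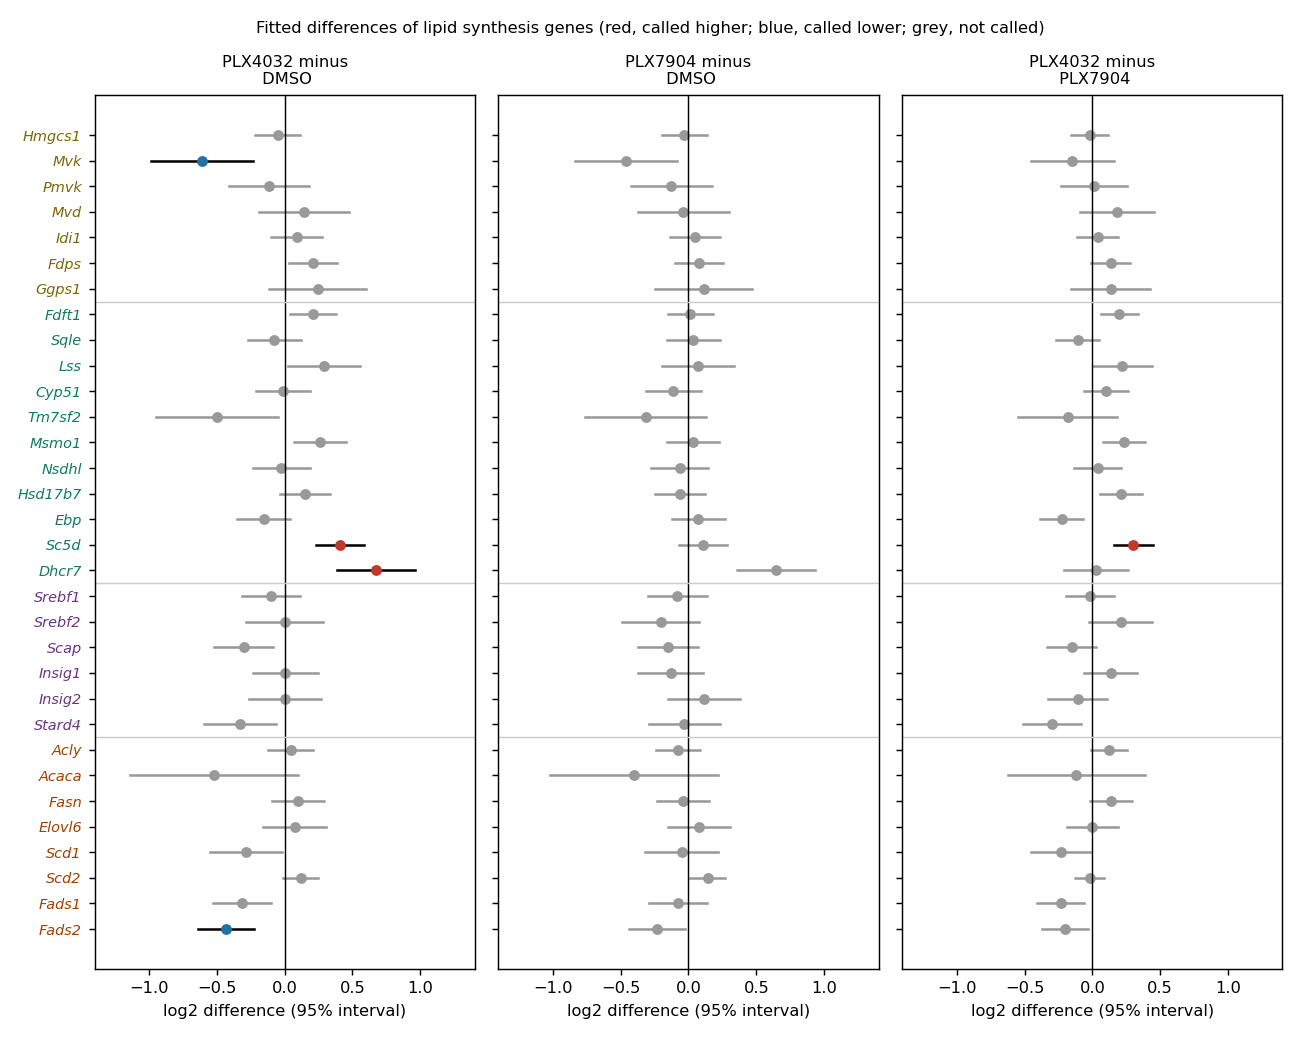
Log2 difference (x axis, points) with its 95% interval (lines) from the limma fit for the 32 measured members in each of the 3 comparisons; red is called higher, blue called lower and grey not called at an adjusted p of 0.05. Calls are Mvk, Fads2, Sc5d and Dhcr7 in the first panel, none in the second and Sc5d in the third.

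Members with several probe sets did not always speak with one voice. Of the 20 members with at least 2 probe sets past the filter on signal, 10 had all of them on the same side of 0 between PLX4032 and DMSO, 7 between PLX7904 and DMSO and 9 between the compounds. The 2 arrays of a compound differed by a median of 0.07 on the log2 scale over the members for PLX4032, with the largest gap of 0.88 for Acaca, and by 0.09 for PLX7904, with the largest gap of 0.41 for Tm7sf2.

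Other lipid genes were read from 5 lists. Among further genes of sterol and fatty acid synthesis, 13 were tested and 1 rose with PLX4032 against DMSO, beside 5.44% of all genes tested. It was Fads3, a relative of Fads1 and Fads2 on the same chromosome, 19. Fads3 read 3520.0 with DMSO, 4377 and 4594 with PLX4032 and 3913 and 3659 with PLX7904. It was high on both PLX4032 arrays, opposite to Fads1 and Fads2. The rise was 1.27-fold (95% interval 1.11 to 1.46, limma adjusted p = 0.0303), and against PLX7904 1.19-fold (1.06 to 1.32, limma adjusted p = 0.0476). The first call ended without either PLX4032 array (limma adjusted p = 0.0613 and 0.128), the second without either PLX4032 array or without PLX7904 replicate 2 (limma adjusted p = 0.133, 0.271 and 0.127). Both ended without the filter on signal (limma adjusted p = 0.0623 and 0.0846) and with the mean over probe sets (0.141 and 0.271), and the second after quantile normalization (0.0668) and cyclic loess (0.0523).

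Between the compounds, Lbr, a sterol C14 reductase of the nuclear envelope, was 1.28-fold lower with PLX4032 (95% interval 1.10 to 1.49, limma adjusted p = 0.0351), and Elovl5, an elongase of polyunsaturated fatty acids, 1.19-fold lower (1.06 to 1.33, limma adjusted p = 0.0449). Lbr read 5433 with DMSO, 4208 and 4562 with PLX4032 and 5042 and 6268 with PLX7904, and Elovl5 4526 with DMSO, 3746 and 3847 with PLX4032 and 4325 and 4708 with PLX7904. For both genes the PLX4032 arrays were the low ones. Mbtps2, the site-2 protease that releases SREBPs, was 1.27-fold lower than with PLX7904 (1.10 to 1.46, limma adjusted p = 0.0336). Lbr and Elovl5 were 2 of 13 further synthesis genes tested, and Mbtps2 was 1 of 9 for SREBP processing and enzyme degradation. Of all genes tested 6.86% were lower between the compounds. The 3 calls ended with median centring (limma adjusted p = 0.229, 0.601 and 0.305 in that order), without the filter on signal (0.0977, 0.0836 and 0.0578), without PLX4032 replicate 1 (0.0999, 0.242 and 0.248) and without PLX7904 replicate 2 (0.132, 0.132 and 0.121). With the mean over probe sets those of Lbr (limma adjusted p = 0.0956) and Mbtps2 (0.0604) ended. That of Elovl5 also ended without PLX4032 replicate 2 (limma adjusted p = 0.120). No gene passed with limma in any comparison among 9 of sterol uptake, efflux and esterification or among 10 of glycerolipid synthesis. At an unadjusted p under 0.05 these lists had 1 and 3 genes between PLX4032 and DMSO, 1 and 2 between PLX7904 and DMSO, and 2 and 1 between the compounds. Of all genes tested 25.9%, 6.65% and 27.3% had such a p in these 3 comparisons.

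Of 11 genes tested for fatty acid oxidation and PPAR targets, 3 rose and 0 fell with PLX4032, also against PLX7904, or 27.3%, beside 10.6% of all genes tested against DMSO and 13.3% between the compounds. Ppard, the nuclear receptor PPAR delta, read 476 with DMSO, 918 and 1029 with PLX4032 and 563 and 487 with PLX7904. Angptl4, a secreted inhibitor of lipoprotein lipase, read 145 with DMSO, 416 and 378 with PLX4032 and 180.4 and 183 with PLX7904. Plin2, a coat protein of lipid droplets, read 5639.5 with DMSO, 7998 and 8184 with PLX4032 and 6859 and 5627 with PLX7904. All 3 were high on the PLX4032 arrays alone. Against DMSO the rises were 2.03-fold for Ppard (95% interval 1.63 to 2.53, limma adjusted p = 0.00179), 2.69-fold for Angptl4 (2.01 to 3.59, 0.00129) and 1.43-fold for Plin2 (1.22 to 1.69, 0.0125). Against PLX7904 they were 1.85-fold, 2.16-fold and 1.30-fold (limma adjusted p = 9.42e-04, 0.00126 and 0.0173). The other 8 genes of that list, which include enzymes of mitochondrial oxidation, did not pass. Cpt1a was the lowest of them, at log2 -0.41 against DMSO and -0.38 between the compounds. Over the 11 genes the median was 0.07 against DMSO, with 7 above 0. Between the compounds it was -0.05, with 5 above 0 and 6 below. Pdk4, Ehhadh, Ppara and Pparg were below the filter on signal and were not tested. With the mean over probe sets the calls of Ppard (log2 0.67 against DMSO and 0.01 between the compounds) and Angptl4 (0.94 and 0.69) ended; the second probe sets had mean signals of 8.78 and 8.86. Plin2, at unchanged values, reached a limma adjusted p of 0.0517 and 0.0568 in that setting. The Plin2 call against PLX7904 also ended without the filter on signal (limma adjusted p = 0.0563). Without the intensity trend, of the 7 genes named from these lists Angptl4 alone passed, against DMSO.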

How the data were processed

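Transcripts were measured on 5 Affymetrix 3′ expression arrays, 1 per sample. The authors deposited an intensity for each of 45101 probe sets on a linear scale, made with MAS5 per the submitters' processing notes. The sources used here do not give its version. The mean of the middle 96% of values was 500.0 on each array, and detection calls were not used. Array medians lay between 44.1 and 51.9, and the number of arrays limits the precision.

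Genes were named from the platform annotation. One probe set with a single symbol was kept per gene, the brightest by the mean of the group means. The log2 of the signal plus 3.34 (the 10th percentile) was fitted for 10853 genes with a mean of at least 47.4 (the median). All arrays entered 1 limma fit (limma 3.58.1, R 4.3.3) of 3 group means (eBayes with an intensity trend, 2 residual and 8.28 prior degrees of freedom), and was tested on simulated data. The lone DMSO array takes its variance from the treated groups. Tests were two-sided, with Benjamini-Hochberg adjustment over all genes tested within a comparison and a threshold of 0.05. Figures used Python 3.11.15 and matplotlib 3.10.9.

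The members and lists were chosen with earlier results of these data known. All members were described; of other lipid genes those that passed in any comparison were named, at most 4 per list.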

Additional observations from a re-analysis of the deposited data

How the results depend on the processing

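Alternatives covered the pseudocount, the filter, the scaling, the variance model, the choice of probe set, a replicate block, a fit to the 4 treated arrays and leaving out each treated array; the DMSO array could not be left out. Between PLX4032 and DMSO, 2 members were higher and 2 lower. The number lower was 1 without the filter, after quantile normalization, after cyclic loess and with the replicate block, and 0 with median centring, with the mean over probe sets and without the intensity trend, where the number higher was 0 too. The median over the members, 0.0018, was -0.043 after quantile normalization, -0.042 after cyclic loess, 0.15 with median centring and -0.10 with the mean over probe sets, which also gave -0.066 for PLX7904 against DMSO. Between the compounds, where 1 member was higher and 0 lower, the numbers were 3 and 1 with the filter at the 75th percentile, 1 and 1 after quantile normalization, 6 and 0 with median centring (median 0.17), 2 and 0 with robust fitting or the replicate block, 4 and 0 without probe sets with the suffix x, s or a, and 0 and 0 without the trend or with the mean over probe sets. That mean, which includes a probe set of Sc5d below the filter, turned Sc5d to -0.38 against DMSO and -0.44 between the compounds.

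Leaving out 1 treated array gave 1 to 4 members higher and 1 to 3 lower between PLX4032 and DMSO (median -0.0022 to 0.0071), 0 to 1 higher and 0 lower between PLX7904 and DMSO (median -0.048 to -0.014) and 0 to 2 higher and 0 to 3 lower between the compounds (median -0.0086 to 0.056). The share of all genes called between PLX4032 and DMSO, 10.6%, was 3.61% without the filter, 16.2% with the filter at the 75th percentile, 4.26% with the mean over probe sets and 0.396% without the trend. Between the compounds 13.3% became 5.38%, 19.4%, 6.34% and 0.322% in that order, and 7.90% without PLX4032 replicate 1. It was 14.1% with median centring, more of it higher than lower, and 14.1% without probe sets with the suffix x, s or a. After quantile normalization it was 12.8%, with robust fitting 13.8% and with the replicate block 14.6%. The deviations of PLX4032 and PLX7904 arrays of the same number correlated at r = -0.0071 over the genes tested. With 2 arrays per compound, this value cannot show whether arrays of the same number shared a culture or batch. The replicate block ended the Mvk call and added Msmo1. Apart from settings whose construction shows it, the cause of a change was not tested.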
